A study of Homo sapiens with 12 samples.

Results

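A set of 10 genes of the carnitine shuttle and of mitochondrial fatty acid oxidation were followed in microglia from WT clones and from clones edited at LACTB. They were found by gene name in a table of estimated counts with 62703 gene rows, and all 10 were present once: ACSL1, SLC22A5, CPT1A, CPT2, CRAT, ACADVL, ACADM, HADHA, HADHB and ETFDH. The cells were iMGLs, microglia-like cells differentiated from the human induced pluripotent stem cell line WTC11 through hematopoietic precursor cells. Both groups came from CRISPR-edited clonal lines of WTC11. Clones J, K and L are labelled WT and clones A, B and C are labelled LACTBKO, each taken through 2 differentiations, which gave 12 bulk RNA-seq libraries. All cells were cultured with IL34, TGFb and MCSF, then also with CX3CL1 and CD200, and were collected on day 27 by the sample labels with no further treatment.

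Long-chain fatty acids cannot cross the inner mitochondrial membrane as CoA esters. An acyl-CoA synthetase activates the fatty acid, CPT1 swaps CoA for carnitine at the outer membrane, a carrier takes the acylcarnitine inward, and CPT2 restores the CoA ester, which beta-oxidation then shortens to acetyl-CoA while electrons pass through ETFDH to ubiquinone. Microglia burn glucose and, as phagocytes of myelin and dead cells, also handle much lipid. LACTB is a mitochondrial serine beta-lactamase-like enzyme, and the study asked what its loss does to gene expression in myeloid cells.

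Levels in single libraries are given in CPM, counts scaled to the size of each library by TMM (trimmed mean of M-values). Libraries summed to between 24153233 and 28406943 estimated counts (median 27456867.5). LACTB itself stood between 70.9 and 98.0 CPM in WT, between 7.52 and 9.77 CPM in LACTB KO clones A and C, and at 44.3 and 51.7 CPM in the libraries labelled LACTB KO clone B. All 20 microglial marker genes listed passed the expression filter, with a summed level between 7750 and 10300 CPM. A list of 20 stromal genes summed to between 30.7 and 10200 CPM in WT and between 28.9 and 1140 CPM in LACTB KO, the highest values being 10200 CPM in differentiation 1 of clone J and 5210 CPM in differentiation 2 of clone K. Of its 18 genes tested between clones, 18 were lower in LACTB KO, 13 of them at an unadjusted p under 0.05 and 0 after adjustment by edgeR. Over all genes tested, 5.56% were lower at an unadjusted p under 0.05. No gene of the stromal list was at 0 in every library. In bulk RNA, fewer cells of a type and less RNA per cell cannot be told apart.

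The genes spanned a wide range of levels. Per kilobase of annotated exon, averaged over the 6 clones, the order was HADHA (79.7 ± 2.79 CPM per kb, SD, n = 6 clones), ACADVL (46.6 ± 6.64), HADHB (28.0 ± 2.32), ACSL1 (16.8 ± 0.984), ACADM (6.75 ± 0.512), CPT2 (5.05 ± 0.522), CRAT (3.99 ± 0.173), CPT1A (2.74 ± 0.550), ETFDH (0.713 ± 0.0531) and SLC22A5 (0.392 ± 0.0681). Each of the 9 neighbouring pairs kept its order in 6 of 6 clones, with p = 0.0312 in the exact two-sided permutation test, the smallest that 6 clones allow, and 0.0312 after Benjamini-Hochberg adjustment over the 9 pairs. The pairs and their direction were taken from these same values, and each difference holds a fixed part set by the gene lengths. These p-values therefore do not support the order. The order depended on the length used. With the canonical transcript in place of all exons, ACADM (41.1 ± 3.12 CPM per kb) stood above ACSL1 (29.5 ± 1.72) and ETFDH (5.47 ± 0.407) above CPT1A (3.44 ± 0.690). HADHA (117 ± 4.11) was above ACADVL (103 ± 14.7) in 5 of 6 clones (exact p = 0.0625, adjusted 0.0625), so that this pair did not keep its order in every clone.

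Isoform families were compared on the same scale. CPT1B, known as the muscle isoform of the first carnitine palmitoyltransferase, had 4.41 ± 0.879 CPM per kb of exon, above CPT1A, and CPT1C, the brain isoform, 0.0631 ± 0.0254. CPT1B shares exons with readthrough transcripts from its neighbour CHKB, so its level depends on how the authors' counting split such reads. Among the long-chain acyl-CoA synthetases, ACSL4, which prefers arachidonic acid, had the highest level at 27.9 ± 2.77 CPM per kb, followed by ACSL1 (16.8 ± 0.984), ACSL3 (10.6 ± 1.02), ACSL5 (6.70 ± 1.30) and ACSL6 (0.0127 ± 0.00643).

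The 10 genes also varied to different degrees between libraries. The SD of log2 CPM over the 12 libraries was 0.713 for CPT1A, above that of 84.5% of the genes tested, and 0.445 for ACADVL. It was 0.0906 for HADHA and 0.0933 for CRAT, and only 4.15% and 4.82% of genes had a value as low. The median over all genes tested was 0.266. SLC22A5 had 0.334, and the other 5 genes lay between 0.148 and 0.181. The ranks of SD were not adjusted for level. By mean log2 CPM over the genes tested, HADHA stood at percentile 97.6, ACADVL at 95.2, CRAT at 64.6 and CPT1A at 53.2. Clone A held the extremes of the 2 most variable genes, with the highest CPT1A and ACADVL in its differentiation 1 and the lowest in its differentiation 2.

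**Figure D1:**
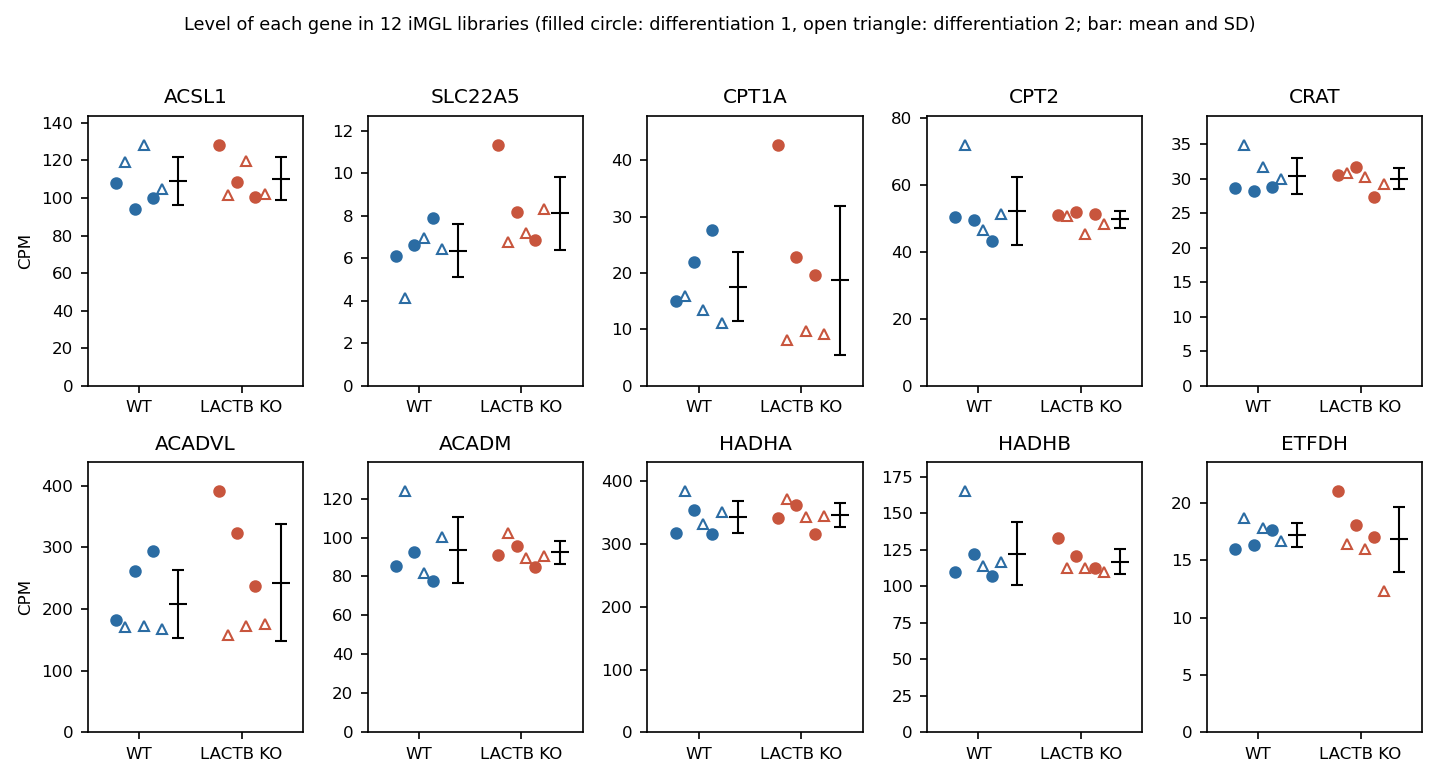
Level in CPM of each of the 10 genes in the 6 WT and 6 LACTB KO libraries; filled circles are differentiation 1, open triangles differentiation 2, and the bar at the right of each group is its mean and SD. WT and LACTB KO overlap in every panel, whereas the triangles of ACADVL, at most 176 CPM, all lie below its circles, at least 182 CPM.

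The genotypes were compared between 3 clones labelled LACTB KO and 3 WT clones, with the counts of the 2 differentiations of a clone summed. The test was edgeR's quasi-likelihood test over 17577 genes. All 10 genes passed the expression filter, and 0 were called at an adjusted p under 0.05. Among all genes tested 0 (0%) were called, and 1118 (6.36%) passed 0.05 unadjusted. LACTB itself was not called, at a log2 fold change of -1.87 (95% confidence interval -3.48 to -0.27, adjusted p = 0.735). None of the 10 reached an unadjusted p under 0.05. Under DESeq2's Wald test 171 genes were called, and none of the 10. Fitted log2 fold changes were above 0 for 5 genes and below 0 for 5, with a median of 0.00 against 0.01 over all genes, and adjusted p-values lay between 0.838 and 0.979. Clone B, labelled LACTB KO, held 44.3 and 51.7 CPM of LACTB, and the fit without it also called 0 of the 10 genes.

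SLC22A5, the plasma membrane importer of carnitine, had the largest difference. Its levels in differentiations 1 and 2 were 6.13 and 4.15 CPM for WT clone J, 6.63 and 6.94 CPM for K, and 7.87 and 6.41 CPM for L. LACTB KO clone A had 11.3 and 6.79 CPM, clone B 8.17 and 7.21 CPM, and clone C 6.84 and 8.30 CPM. Single libraries overlapped between the genotypes, while the clone means did not, the lowest LACTB KO clone mean being 2.93 and the highest WT clone mean 2.84 in log2 CPM. Clone means did not overlap for 10.4% of all genes, 4.11% with LACTB KO higher and 6.33% with LACTB KO lower, and SLC22A5 was the only 1 of the 10. WT libraries averaged 6.36 ± 1.24 CPM (SD, n = 6, from 3 clones) and LACTB KO libraries 8.11 ± 1.71 CPM (n = 6, from 3 clones), and the log2 fold change was 0.34 (standard error 0.165, 95% confidence interval -0.05 to 0.74, unadjusted p = 0.0762, adjusted p = 0.838). The exact two-sided permutation test gave p = 0.1, the smallest that 3 clones against 3 allow. The difference was 0.21 without WT clone J and 0.21 with the stromal level of each clone as a covariate, and these are its lowest values over the alternatives run.

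ACADVL, the acyl-CoA dehydrogenase that opens the oxidation of very long chains, came next, WT at 208 ± 55.3 CPM and LACTB KO at 243 ± 95.1 CPM (SD, n = 6 libraries each). Its log2 fold change was 0.21 (standard error 0.135, 95% confidence interval -0.11 to 0.53, adjusted p = 0.878). CPT1A stood at 17.5 ± 6.09 CPM in WT and, more widely spread, at 18.7 ± 13.3 CPM in LACTB KO, with a log2 fold change of 0.06 and the widest interval of the 10, -0.43 to 0.55 (adjusted p = 0.958).

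The remaining 7 genes had log2 fold changes between -0.07 and 0.02. CPT2, which returns the acyl group to CoA inside the mitochondrion, averaged 52.1 ± 10.2 CPM for WT against 49.7 ± 2.50 CPM for LACTB KO (log2 fold change -0.07, 95% confidence interval -0.33 to 0.20). CRAT, which moves acetyl and other short acyl groups between CoA and carnitine, measured 30.4 ± 2.55 and 30.0 ± 1.49 CPM (-0.02, -0.19 to 0.16). ACADM, the medium-chain dehydrogenase, measured 93.6 ± 16.8 and 92.3 ± 5.99 CPM (-0.01, -0.23 to 0.20). The alpha and beta subunits of the mitochondrial trifunctional protein are HADHA, at 343 ± 25.8 and 347 ± 19.1 CPM (0.02, -0.14 to 0.19), and HADHB, at 122 ± 21.6 and 117 ± 8.63 CPM (-0.06, -0.29 to 0.16). ETFDH, which passes electrons on to ubiquinone, measured 17.2 ± 1.04 and 16.8 ± 2.83 CPM (-0.03, -0.29 to 0.22), and ACSL1, which activates long-chain fatty acids, 109 ± 12.5 and 110 ± 11.5 CPM (0.01, -0.17 to 0.20). The bound farthest from 0 among these 7 intervals was the -0.33 of CPT2, so that differences within these bounds are not excluded.

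**Figure D2:**
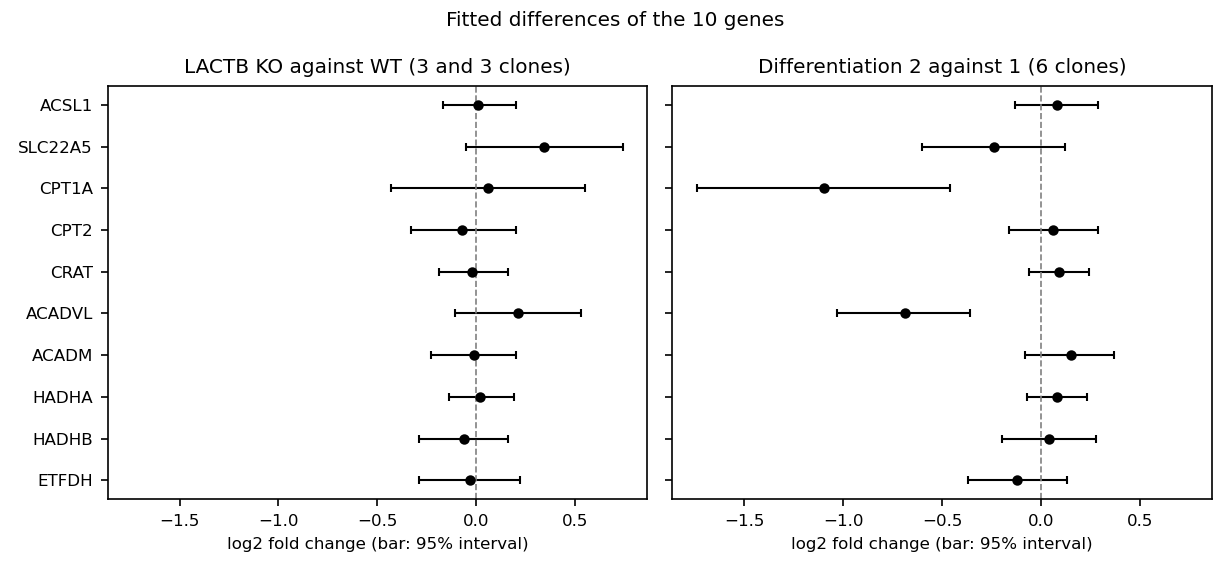
Fitted log2 fold change of each gene with its 95% confidence interval, LACTB KO against WT on the left and differentiation 2 against differentiation 1 on the right. All intervals on the left include 0, and on the right only those of CPT1A (-1.74 to -0.46) and ACADVL (-1.03 to -0.36) do not.

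The other genes of the pathway were taken as 84 genes in 5 role lists, of which 79 passed the filter. Between genotypes 41 lay above 0 and 38 below, around a median of 0.00 (log2 fold change), and 0 were called by edgeR. An unadjusted p under 0.05 was found for 1 higher and 5 lower genes, against 0.802% of all genes in the higher and 5.56% in the lower direction. Among 16 tested genes of fatty acid uptake and activation, FABP3, a cytosolic fatty acid carrier, had a log2 fold change of -2.22 (adjusted p = 0.726) and the scavenger receptor CD36 one of -0.38 (adjusted p = 0.729). For FABP3, 1 WT library stood apart, differentiation 2 of clone J at 36.0 CPM against 1.15 to 5.80 CPM in the other 11. The same library had the highest CD36, 232 CPM against 89.0 to 162 CPM in the others. PNPLA2, the triglyceride lipase of lipid droplets, had 0.13 (adjusted p = 0.878).

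In the carnitine list, 4 of 9 tested genes were higher and 5 lower. CPT1C had -0.97 (adjusted p = 0.726) at no more than 1.09 CPM in any library. The organic cation transporter SLC22A4 had -0.70, at no more than 28 counts in any library, and CPT1B -0.26 (both adjusted p = 0.878). Mitochondrial beta-oxidation had 16 higher and 7 lower of 23 tested, with a median of 0.03 and values between -0.12 and 0.25. Of all 17577 genes tested, 9090 were higher and 8487 lower. This beta-oxidation list also holds genes of amino acid and propionyl-CoA breakdown, such as IVD and PCCB. Its smallest p-values belonged to ACADS, the short-chain dehydrogenase (0.25, adjusted p = 0.757), IVD of leucine breakdown (0.13, adjusted p = 0.878) and the enoyl-CoA hydratase ECHS1 (0.14, adjusted p = 0.878).

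Of 11 peroxisomal genes tested, 4 were higher and 7 lower. The bifunctional enzyme EHHADH had -0.74 (adjusted p = 0.726), with 5.64 to 9.18 CPM in WT and 2.89 to 6.73 CPM in LACTB KO. The thiolase ACAA1 had 0.08 and the transporter ABCD2, at no more than 37 counts in any library, 0.55 (both adjusted p = 0.878). Among 20 regulators and regulated genes, 9 were higher and 11 lower. PRKAA2, a catalytic subunit of AMP-activated protein kinase, had -0.79 (adjusted p = 0.730) at no more than 17 counts in any library. The lipid droplet protein PLIN2 had -0.27 and the uncoupling protein UCP3, at no more than 22 counts in any library, -0.63 (both adjusted p = 0.878). FABP4, BBOX1, ACADL and ACOX2 were among those that did not pass the filter. FABP4 had at most 1 count in a library, and BBOX1 at most 3.

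The larger differences among the 10 genes lay between the 2 differentiations of the same clone, which the sample labels call batches. They were tested library by library, each clone having its own term, over 17335 genes, of which 0 (0%) were called after adjustment and 1583 (9.13%) passed 0.05 unadjusted. CPT1A and ACADVL were lower in differentiation 2, and they alone of the 10 had an unadjusted p under 0.05, against 3.57% of all genes in that direction and 5.57% in the other. The call depended on the tool and on the filter. By edgeR with its filter neither gene had an adjusted p under 0.05, whereas by DESeq2's Wald test, added after the data were seen, both did, among 299 genes called.

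CPT1A is the isoform of liver and most other tissues and the step at which malonyl-CoA holds back the entry of fatty acids. Clone A went from 42.8 CPM in differentiation 1 to 8.04 CPM in differentiation 2, clone B from 22.8 to 9.79 CPM and clone C from 19.6 to 9.24 CPM. Of the WT clones, J had 15.1 then 16.0 CPM, K 21.9 then 13.5 CPM, and L 27.6 then 11.2 CPM. Clone A had the largest ratio, 5.28-fold, and clone J was the only 1 of 6 clones that was not lower in differentiation 2. The mean was 25.0 ± 9.64 CPM (SD, n = 6 clones) in differentiation 1 and 11.3 ± 2.98 CPM (n = 6) in differentiation 2. The log2 fold change was -1.10 (standard error 0.278, 95% confidence interval -1.74 to -0.46, unadjusted p = 0.00418, adjusted p = 0.311 by edgeR and 0.00280 by DESeq2), with p = 0.0625 in the exact permutation test over clones. Among all genes, 0.911% had a log2 fold change as low or lower.

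ACADVL went from 391 to 158 CPM for clone A, from 324 to 173 CPM for B and from 237 to 176 CPM for C. For the WT clones it went from 182 to 171 CPM (J), from 262 to 173 CPM (K) and from 294 to 168 CPM (L). All 6 clones were lower in differentiation 2, as were 2.67% of all genes, and the libraries of the 2 differentiations did not overlap, as for 0.242% of genes in this direction and 0.686% in the other. Differentiation 2 was narrow, at 170 ± 6.40 CPM (SD, n = 6 clones), against 282 ± 72.3 CPM (n = 6) in differentiation 1. The log2 fold change was -0.69 (standard error 0.144, 95% confidence interval -1.03 to -0.36, unadjusted p = 0.00136, adjusted p = 0.253 by edgeR and 2.5e-04 by DESeq2), with p = 0.0312 in the exact permutation test over clones, the smallest it allows. A log2 fold change as low or lower was found for 2.88% of genes. Without a filter on low counts the adjusted p by edgeR was 0.0317 for ACADVL and 0.0663 for CPT1A.

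Clone J gave the smallest differences of both genes. Its differentiation 1 is the library with the highest stromal level, 10200 CPM summed over the list, and it had the lowest CPT1A and ACADVL of that differentiation. Differentiation 2 of clone K, next at 5210 CPM, had 13.5 CPM of CPT1A and 173 CPM of ACADVL. The ranges in differentiation 2 were 8.04 to 16.0 and 158 to 176 CPM. The part of stromal cells in the values of single libraries was not tested. Without clone J the log2 fold changes were -1.34 for CPT1A (adjusted p = 0.114) and -0.82 for ACADVL (adjusted p = 0.0749), and 44 genes were called by edgeR. Adding the stromal level as a covariate gave -1.10 (adjusted p = 0.201) and -0.69 (adjusted p = 0.162), respectively. Summed stromal levels ranged from 30.7 to 10200 CPM in differentiation 1 and from 28.9 to 5210 CPM in differentiation 2, and 16 of the 19 stromal genes tested were lower in differentiation 2, none with an unadjusted p under 0.05. Microglial markers summed to 7750 to 8670 CPM in differentiation 1 and to 7800 to 10300 CPM in differentiation 2.

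The other 8 genes had log2 fold changes between -0.24 (SLC22A5) and 0.15 (ACADM), each with an interval that includes 0. CRAT measured 29.2 ± 1.57 CPM in differentiation 1 and 31.2 ± 2.04 CPM in differentiation 2, and HADHA 335 ± 20.6 and 355 ± 19.6 CPM (SD, n = 6 clones). At the steps before and after CPT1A, ACSL1 had a log2 fold change of 0.08 (95% confidence interval -0.13 to 0.29) and CPT2 one of 0.06 (-0.16 to 0.29).

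Over the 12 libraries, CPT1A and ACADVL were also the most alike pair of the 10 genes, with a Pearson r of 0.924 in log2 CPM. This value and those that follow describe libraries that share clones and differentiations, and carry no test. The genes outside the 10 most like CPT1A were PDK4 (r = 0.915), the kinase that turns off pyruvate dehydrogenase, and SLC25A20 (r = 0.907), the carnitine-acylcarnitine carrier of the inner membrane, which works directly between CPT1A and CPT2. For ACADVL they were the kinase AKT1 (r = 0.917) and the formin INF2 (r = 0.911). The next 3, at r = 0.910 each and named after their values were seen, were LPCAT3, which remodels phospholipids, ABCG1, which exports cholesterol, and MYLIP, which marks the LDL receptor for breakdown.

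SLC25A20 went from 51.8 to 27.4 CPM for clone A, from 32.7 to 28.1 CPM for B and from 35.3 to 25.8 CPM for C. For WT it went from 27.0 to 30.4 CPM (J), from 32.9 to 28.9 CPM (K) and from 39.7 to 29.6 CPM (L). Clone J was again the exception, and the log2 fold change was -0.34 (standard error 0.128, adjusted p = 0.473). PDK4 went from 27.3 to 4.13 CPM for clone A, from 25.4 to 2.58 CPM for L and from 4.13 to 4.71 CPM for J. It was lower in 5 of 6 clones, at a log2 fold change of -1.95 (95% confidence interval -3.01 to -0.89, adjusted p = 0.293). AKT1 had -0.20 (adjusted p = 0.409) and INF2 -0.57 (adjusted p = 0.109). None of these genes had an adjusted p under 0.05 by edgeR.

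**Figure D3:**
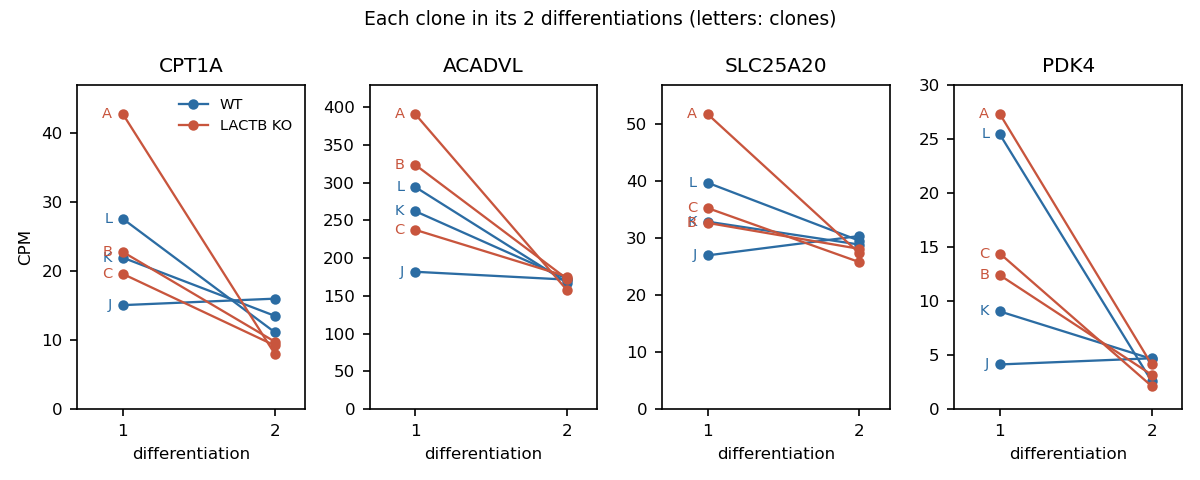
Level in CPM of CPT1A, ACADVL, SLC25A20 and PDK4 in differentiations 1 and 2, with 1 line per clone, WT in blue and LACTB KO in red. Clone A spans the widest gap for CPT1A (42.8 to 8.04 CPM) and ACADVL (391 to 158 CPM), and the line of clone J does not slope down for CPT1A, SLC25A20 or PDK4.

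Of the 84 other pathway genes, 78 were tested between differentiations. Of these 39 were higher and 39 lower in differentiation 2, and 0 were called by edgeR. An unadjusted p under 0.05 was found for 8 higher and 5 lower genes, against 5.57% of all genes in the higher and 3.57% in the lower direction. Among the lower ones were PDK4, SLC25A20, ACAD11, a dehydrogenase of long chains (log2 fold change -0.45, adjusted p = 0.246), and the nuclear receptor ESRRA (-0.17, adjusted p = 0.490). ACAD11, ESRRA and the 8 higher genes were named after their values were seen. ACAD11 was lower in 6 of 6 clones.

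Of the higher ones, ACACA, which makes malonyl-CoA, had a log2 fold change of 0.58 (adjusted p = 0.300), the acetyl-CoA synthetase ACSS2 0.50 (adjusted p = 0.246), ACSL3 0.47 (adjusted p = 0.271) and ACSL4 0.28 (adjusted p = 0.246). ACSL3 and ACSL4 were higher in differentiation 2 in 6 of 6 clones, as were 3.40% of all genes, whereas ACSL1 differed by 0.08. The others were the nuclear receptors PPARD (0.25, adjusted p = 0.542) and PPARA (0.22, adjusted p = 0.354), MMUT (0.15, adjusted p = 0.491) and UCP2 (0.15, adjusted p = 0.436). By list, the median log2 fold change was -0.04 for uptake and activation, 0.03 for the carnitine genes, -0.02 for mitochondrial beta-oxidation, 0.07 for peroxisomal oxidation and 0.00 for regulators and regulated genes, against -0.00 over all genes tested.

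**Figure D4:**
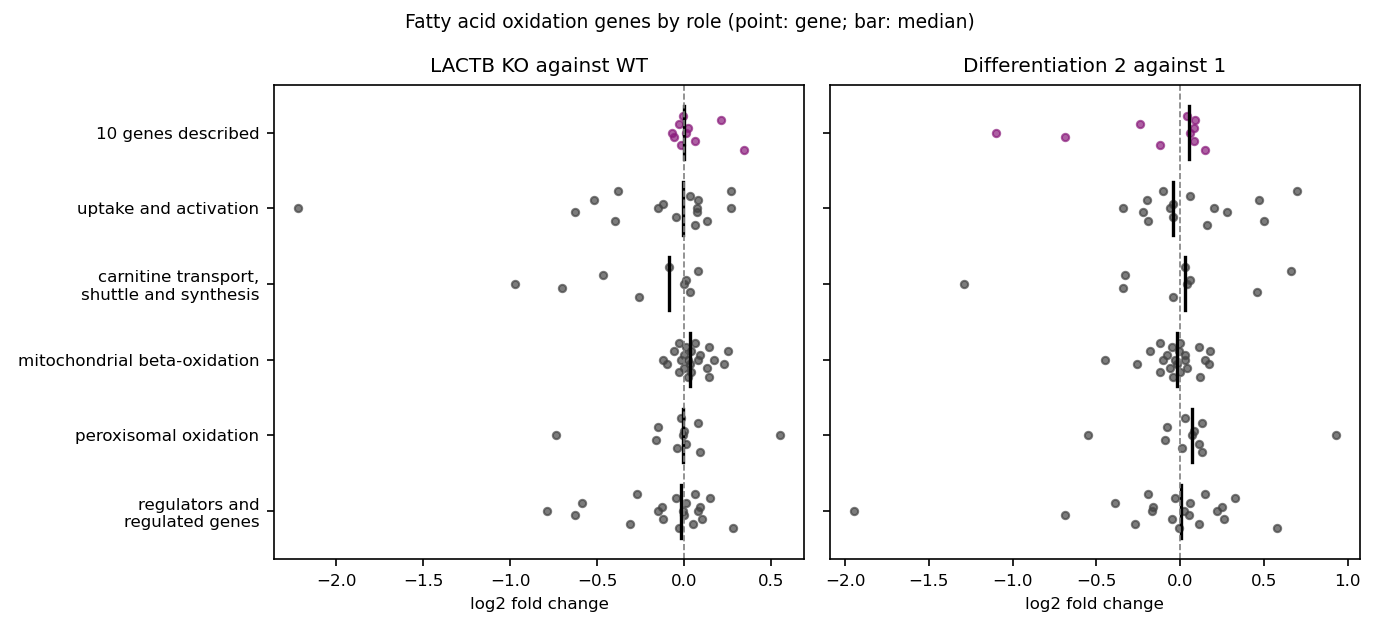
Log2 fold change of the 10 genes and of the other fatty acid oxidation genes tested, by role, for LACTB KO against WT (left) and differentiation 2 against 1 (right); each point is a gene and each bar a median. Medians lie between -0.09 and 0.07 in every list, and CPT1A (-1.10) and PDK4 (-1.95) are among the few points far to the left in the right panel.

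Start regions were read from GRCh38 for the genes above. CPT1A lies on the minus strand of chromosome 11, from 68754620 to 68844410, ACADVL on the plus strand of chromosome 17, from 7217125 to 7225266, and both were searched over the 250 bases before the canonical start site. The stretch printed for CPT1A, chr11:68841932-68842166 on the minus strand, is the part of that window outside every annotated exon, and capitals mark matches to the GC box GGGCGG on either strand, which Sp1 binds. It is shown because CPT1A had the largest difference of the 10 between differentiations. The RefSeq annotation used as a check gave CPT1A another start site.

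CPT1A: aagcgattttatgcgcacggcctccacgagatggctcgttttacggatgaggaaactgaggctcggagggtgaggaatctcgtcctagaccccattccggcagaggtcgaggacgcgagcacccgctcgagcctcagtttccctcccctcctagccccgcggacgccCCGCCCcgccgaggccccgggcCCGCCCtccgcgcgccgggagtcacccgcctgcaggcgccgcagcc

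The GC box was found in the 250 bases before 9 of the 10 genes, all but ETFDH, against 62.4% of 17555 genes tested. The half-site of nuclear receptors, AGGTCA, was found before 1 of the 10, CRAT, and before 9.15% of all genes. That half-site also forms part of the longer motifs searched, AAGGTCA (2.33% of genes), as bound by ERR, and a direct repeat of AGGTCA with 1 base between (0.0285%), as bound by PPAR with RXR, neither of which was found before any of the 10. No match was found before any of them for CCAAT (33.4% of genes) or TATAAA (6.96%). All motifs were searched on both strands.

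HADHA and HADHB encode the subunits of 1 complex and lie head to head on chromosome 2, HADHA on the minus strand (26190635 to 26244672) and HADHB on the plus strand (26243170 to 26290465), with 306 bases between their canonical start sites. The bases between them that no annotated exon covers, chr2:26244673-26244747 on the plus strand, hold none of the motifs searched and are shown as the stretch that both genes share.

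HADHA and HADHB: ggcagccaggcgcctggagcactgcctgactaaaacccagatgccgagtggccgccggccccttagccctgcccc

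The ratio of the 2 subunits was computed in each library. HADHA counts over HADHB counts had a median of 2.94 over the 12 libraries, and 2.91 per kilobase of exon. The ratio was 2.90 and 2.33 in the 2 differentiations of clone J, 2.91 and 2.92 in K, 2.96 and 3.01 in L, 2.57 and 3.32 in A, 2.99 and 3.05 in B, and 2.81 and 3.13 in C. Differentiation 2 of clone J stood lowest and differentiation 2 of clone A highest, and the other 10 libraries lay between 2.57 and 3.13. In clone J the low ratio came with 165 CPM of HADHB, its highest value, beside 384 CPM of HADHA, which was the highest value of HADHA too.

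**Figure D5:**
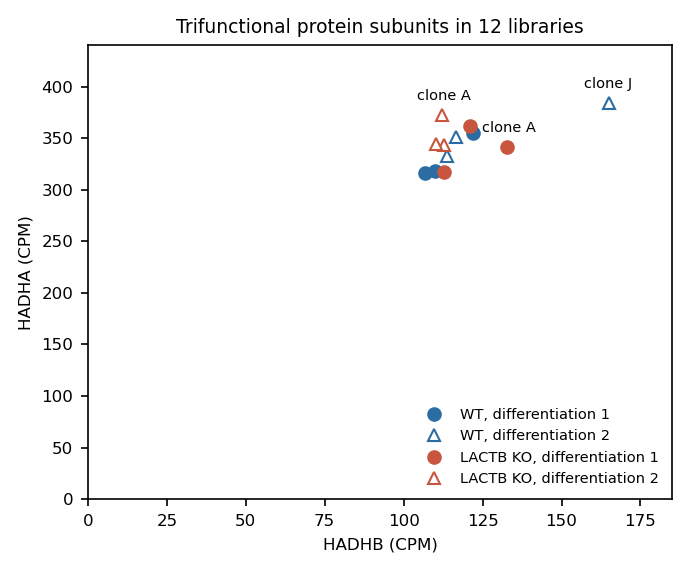
HADHA against HADHB in CPM in the 12 libraries, WT in blue and LACTB KO in red, differentiation 1 as filled circles and differentiation 2 as open triangles. Differentiation 2 of WT clone J lies apart on the right at 165 CPM of HADHB, and the other 11 libraries lie between 107 and 133 CPM.

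The same library, differentiation 2 of clone J, held the highest value of CPT2 (72.0 CPM), CRAT (34.9 CPM) and ACADM (124 CPM). The genes outside the 10 most like ACADM were PCCB (r = 0.965), the beta subunit of propionyl-CoA carboxylase, and ACY1 (r = 0.936), and PCCB was also among those most like HADHA (r = 0.943). HADHB was most like PEBP1 (r = 0.963) and PLEKHB2 (r = 0.960), CPT2 most like NCK1 (r = 0.950) and SLC43A1 (r = 0.945), and CRAT most like ALG1 (r = 0.922) and HTATIP2 (r = 0.891). For SLC22A5 they were IMPA2 and ANXA11 (r = 0.947 each), for ETFDH NKG7 (r = 0.918) and AFAP1L1 (r = 0.878), and for ACSL1 UQCC1 (r = 0.925) and LAP3 (r = 0.923).

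Whether the genotype difference itself depended on the differentiation was tested by an interaction term on the 12 libraries. No gene was called by edgeR (0%), and 0.986% of genes had an unadjusted p under 0.05. Of the 10 genes, 9 had a negative term, as did 48.7% of all genes, and the values were -0.93 for CPT1A (standard error 0.471, unadjusted p = 0.0900), -0.42 for ETFDH (standard error 0.174, unadjusted p = 0.0461) and -0.38 for ACADVL (standard error 0.272, unadjusted p = 0.201), each with an adjusted p of 1.00. The median was -0.30 against 0.01 over all genes. A negative term was also found for 49 of the 78 other pathway genes tested (median -0.09). These include 19 of 23 in the mitochondrial beta-oxidation list (median -0.16) and 7 of 20 regulators and regulated genes (median 0.07). In fits added after the data were seen, the CPT1A term was -0.57 without clone J and -0.52 without clone A, and the ACADVL term was -0.18 in each of these 2 fits. The stromal list moved in the same term, 16 of 19 genes above 0 with a median of 1.97 and 0 with an unadjusted p under 0.05, and its part in these values was not tested. Within differentiation 1, LACTB KO against WT gave a log2 fold change of 0.40 for CPT1A and 0.37 for ACADVL, and within differentiation 2 it gave -0.60 and -0.03 (adjusted p = 0.983 in differentiation 1 for both, then 0.929 and 0.963). For SLC22A5 the 2 values were 0.35 and 0.34, and for HADHA 0.04 and -0.02. In differentiation 2, CPT1A was 9.02 ± 0.893 CPM (SD, n = 3 clones) in LACTB KO and 13.6 ± 2.43 CPM in WT.

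Clones of the same genotype were compared too. The test called 7 genes (0.0404%), against 8.51% with an unadjusted p under 0.05, and none of the 10, whose adjusted p-values lay between 0.826 and 0.956. LACTB was among the 7 (adjusted p = 0.00127).

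Several of the genes overlap a neighbour on the other strand, and the TruSeq version 2 kit does not mark the strand of a read. The neighbours are PTPA for CRAT, with 4026 to 4758 counts against at least 739 for CRAT, PPID and C4orf46 for ETFDH, DLG4 for ACADVL, CZIB for CPT2, and HADHA and HADHB for each other, while RABGGTB overlaps ACADM on the same strand. How the authors' counting assigned such reads is not given in the sources used here, and the levels of these genes are uncertain to that extent.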

How the data were processed

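Poly(A) RNA of 12 iMGL libraries (RNA integrity number over 9.0 per the labels) was sequenced from both ends. Per the methods the reads were trimmed with Cutadapt, aligned to hg38 with STAR, and the authors deposited estimated counts per gene without scaling. The counting tool, annotation and strand setting are not given in the sources used here. Whole counts had been planned for, but 10.8% to 11.5% of values were fractions, so counts were rounded and then summed per clone. Per the labels cells were collected on day 27, whereas the methods say a day later. edgeR 4.0.16 in R 4.3.3 was used with TMM, filterByExpr, the quasi-likelihood test, a prior count of 2 for log2 CPM and Benjamini-Hochberg adjustment over all genes (threshold 0.05). The steps were tested on counts simulated with the same spread for every gene, so the outcome does not carry over to their power in these data. GENCODE version 44 gave positions and lengths (62639 of 62703 identifiers matched). The study fitted DREAM, which was not used here; limma 3.58.1 voom and DESeq2 1.42.0 were alternatives.

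The 10 genes, the role lists and the marker lists were chosen with earlier results of these data known. Named genes were the 10, LACTB, the 3 of each role list with the smallest p between genotypes and any with an adjusted p under 0.05, the CPT1 and ACSL isoforms, and the 2 genes most correlated with each of the 10; others are marked as named after their values were seen. Differentiation number marks a batch in the labels. After the genotype mean was removed, libraries of equal number in different genotypes correlated at 0.0327 on average over 18 pairs (-0.467 to 0.579). Those of unequal number correlated at -0.0313 on average. Clone sums balance the differentiation number. The lowest chi-square per degree of freedom between any 2 libraries was 8.63, so none was a duplicate. Clones are separate lines, but p-values measure only the spread between these 6. Markers of granulocytes and mast cells summed to at most 3.30 CPM, of erythroid cells and megakaryocytes to at most 16.3 CPM, and of pluripotent cells to at most 21.0 CPM. Values of some genes that these rules name are not reported here.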

Additional observations from a re-analysis of the deposited data

Results flagged for a closer look

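In the WT group 2 values stood apart from the other 5 libraries by Dixon's criterion, with a gap above his 95% critical value for 6 samples. Both belong to differentiation 2 of clone J. CPT2 had 72.0 CPM there against 43.3 to 51.4 CPM in the other WT libraries (gap 0.663 of the range), and HADHB had 165 CPM against 107 to 122 CPM (gap 0.699). They were 2 of 20 groups of 6 libraries examined. The chance rate of about 1 in 20 holds for independent values, whereas the 6 libraries of a group came from 3 clones. CPT2 and HADHB also varied together over the 12 libraries (Pearson r = 0.894), so the 2 flags are not separate events. The stromal list summed to 663 CPM in this library and the microglial list to 10300 CPM, the highest of the 12, and their part in these values was not tested.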

How the results depend on the processing

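No alternative called any of the 10 genes between LACTB KO and WT. The count over all genes, 0 by edgeR, was 2 without a filter on low counts, 171 by DESeq2's Wald test, and 0 to 1 with each clone left out (1 without WT clone L and 1 without LACTB KO clone B). With the differentiation as replicate block on 12 libraries it was 0, and the block gave CPT1A a log2 fold change of -0.09 in place of 0.06; it changed no call. Pairs of clones as block (J and A, K and B, L and C, added after the data were seen) also called 0 genes. Signs of the small genotype differences turned often. CPT1A was -0.14 by limma voom, -0.60 in differentiation 2 alone and -0.05 with the stromal covariate. In differentiation 1 alone CPT2 was 0.11, CRAT 0.06, ACADM 0.08, HADHB 0.11 and ETFDH 0.17, and with the stromal covariate they were 0.02, 0.08, 0.08, 0.06 and 0.05. In differentiation 2 alone ACADVL was -0.03, HADHA -0.02 and ACSL1 -0.13. Without a filter ACADM was 0.00. With each clone left out, the ranges were -0.19 to 0.21 for CPT1A, -0.13 to 0.06 for CPT2, -0.04 to 0.03 for CRAT, -0.06 to 0.07 for ACADM, -0.00 to 0.06 for HADHA, -0.13 to 0.03 for HADHB, -0.11 to 0.06 for ETFDH and -0.03 to 0.07 for ACSL1. ACADVL, 0.21, ranged from 0.10 (without WT clone J) to 0.31 (without LACTB KO clone C) and was 0.13 without LACTB KO clone A. SLC22A5 kept its sign, from 0.21 to 0.44.

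Between differentiations, the 0 genes called became 80 without a filter (1 of the 10, ACADVL), 299 by DESeq2 (2 of the 10), 1 with the stromal covariate, and 0 to 44 with each clone left out (44 without WT clone J). CPT1A lay between -1.34 and -0.84 and ACADVL between -0.82 and -0.56. Without a clone CPT2 ranged from -0.03 to 0.11 and HADHB from -0.07 to 0.10, both negative only without clone J. The 7 genes called between clones of a genotype became 196 without a filter and 1 to 6 with a clone left out, fewer than 4 without WT clone L or any LACTB KO clone. The interaction called 0 genes under each alternative run. With each clone left out its term lay between -1.26 and -0.52 for CPT1A and between -0.62 and -0.18 for ACADVL, and its sign turned for SLC22A5 (-0.21 to 0.30) and HADHA (-0.17 to 0.02). The causes were not tested. The least counted of the 10 genes, SLC22A5, had at least 112 counts in a library, and an effect of depth was not tested.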
